A study of Homo sapiens with 4 samples.

Results

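The genes described here encode P-TEFb, the 7SK particle that holds it inactive, the factors that pause RNA polymerase II near promoters, and the factors that travel with the polymerase through the gene body. They were taken by symbol from a list of 34 genes grouped by function, and 33 of the 34 were among the 28103 symbols of the count table. The symbol SPT2 was not among them, and SPTY2D1, for which RefSeq gives Spt2 as a synonym, is described with the related genes. The proteins of the super elongation complex itself were not on the list.

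The samples were 2 libraries of HEL cells with AFF4 knockdown (AFF4_KD) and 2 of wild-type (WT) HEL cells labelled Ctrl, each made from polyadenylated RNA. HEL is an established line from a human erythroleukaemia that expresses erythroid and megakaryocytic genes. The AFF4 protein holds the super elongation complex together, which brings P-TEFb to paused polymerase. How and for how long AFF4 was knocked down is not stated in the sources used here, and neither is whether replicates were separate cultures. The p-values therefore speak of the spread among these 4 libraries, part of which may be technical. In bulk RNA, fewer cells of a type and less RNA per cell cannot be told apart.

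After initiation, RNA polymerase II is halted a short distance into the gene by DSIF and NELF. P-TEFb, the kinase CDK9 with cyclin T1 or T2, phosphorylates both factors and the C-terminal tail (CTD) of the polymerase, NELF leaves, and elongation starts. Much of the P-TEFb in a cell is stored in the 7SK particle, where HEXIM proteins bound to the RNA 7SK inhibit CDK9. The PAF1 complex, SPT6, FACT and TFIIS then keep the polymerase moving through nucleosomes and out of backtracked states.

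The 7SK RNA itself is shown because it had the largest log2 difference between libraries among these genes. It is encoded by RN7SK (chr6:52995621-52995948, plus strand, GRCh38), is made by RNA polymerase III and ends without a poly(A) tail, so a library captured on oligo(dT) samples it poorly. The first 120 bases of the 328-base GENCODE v29 transcript are given, written as DNA, with each GATC in capitals. HEXIM proteins recognise GAUC elements in the 5′ hairpin of the RNA. Which of the marked copies are such elements was not examined.
RN7SK: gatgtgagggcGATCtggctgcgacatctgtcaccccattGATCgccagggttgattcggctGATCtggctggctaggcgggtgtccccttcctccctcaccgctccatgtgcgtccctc
GATC, which reads the same on both strands, occurs 3 times in the transcript, at bases 12 to 15, 41 to 44 and 63 to 66 from the 5′ end. At least 3 copies occur in the first 328 bases of 7.26% of 190636 other GENCODE transcripts of at least that length, and at least 1 copy in 60.1%.

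The libraries held 17955867 and 16643610 counts in AFF4_KD and 19129008 and 14903878 in Ctrl, and 13572 genes passed the filter on low counts. AFF4 fell to 18.7 and 18.9 CPM in the AFF4_KD libraries, against 88.3 and 69.2 CPM in the Ctrl libraries (CPM, counts scaled by library size and TMM). This is -2.07 ± 0.19 (SE) as a log2 fold change, with an adjusted p of 0.0268 by the quasi-likelihood test of edgeR. All 15 markers listed for HEL, among them GATA1, ITGA2B and the fetal globin genes, had counts in each library, and 1 of them was called, HBG1 (log2 fold change -0.86 ± 0.12 (SE), edgeR adjusted p = 0.0394). Their summed level was 10535 to 10536 CPM in AFF4_KD and 14055 to 16748 CPM in Ctrl. Most of this difference lay in HBG1, HBG2 and HBE1. Their means were 2292, 4091 and 988 CPM in AFF4_KD and 4165, 6556 and 1375 CPM in Ctrl. The means of GATA1, TAL1, NFE2, KLF1 and GP1BA were higher in AFF4_KD, and those of the remaining HEL markers were lower. Of genes of other cell types, COL1A2, COL3A1, DCN, LUM, CD3D, CD3E and CD3G were at 0 in all 4 libraries. None of the marker lists for fibroblast, T cell, B cell, monocyte, epithelial and endothelial cells had a called gene. Their summed levels were at most 2.41 CPM for the first 3 lists. They were 49.1 to 52.5 CPM in AFF4_KD and 55.0 to 60.7 CPM in Ctrl for the monocyte list, 43.8 to 44.3 CPM in AFF4_KD and 51.8 to 66.5 CPM in Ctrl for the epithelial list, and 153.2 to 162.9 CPM in AFF4_KD and 174.6 to 189.9 CPM in Ctrl for the endothelial list. Most of the monocyte sum lay in LYZ, most of the epithelial sum in KRT18 and KRT8, and most of the endothelial sum in PECAM1. The remaining genes of these lists were at or below 4.42 CPM in every library, the value of CDH5 in Ctrl 2. The part of the marker genes of other cell types in the results was not tested.

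All 33 genes passed the filter, and 0 of them passed the edgeR test at an adjusted p under 0.05 over all genes, where 0.641% of the tested genes did. DESeq2 and limma-voom also called 0 of the 33, where they called 3.05% and 0.678% of the genes they tested. At an unadjusted p under 0.05 the list had 1 higher gene, WDR61, and 2 lower genes, TCEA1 and TCEA2, where 6.79% and 8.19% of all tested genes were higher and lower by that rule. The log2 fold changes lay between -1.71 for RN7SK and 0.45 for WDR61, 19 positive and 14 negative, with a median of 0.024 beside -0.0089 over all tested genes. The median size of the change, without its sign, was 0.082 in the list and 0.20 over all tested genes.

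The intervals give the size of change that these libraries allow. For 31 of the 33 genes the 95% interval of the fold change lay within 2-fold in either direction, and for 22 within 1.5-fold. Over all tested genes these shares were 75.5% and 30.2%. The median level of the list, 65.8 CPM over the 4 libraries, was above the 27.9 CPM of all tested genes. Whether this level accounts for the narrower intervals, or for the smaller median size of change, was not tested. The exceptions to the 2-fold bound were RN7SK and TCEA2.

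**Figure D1:**
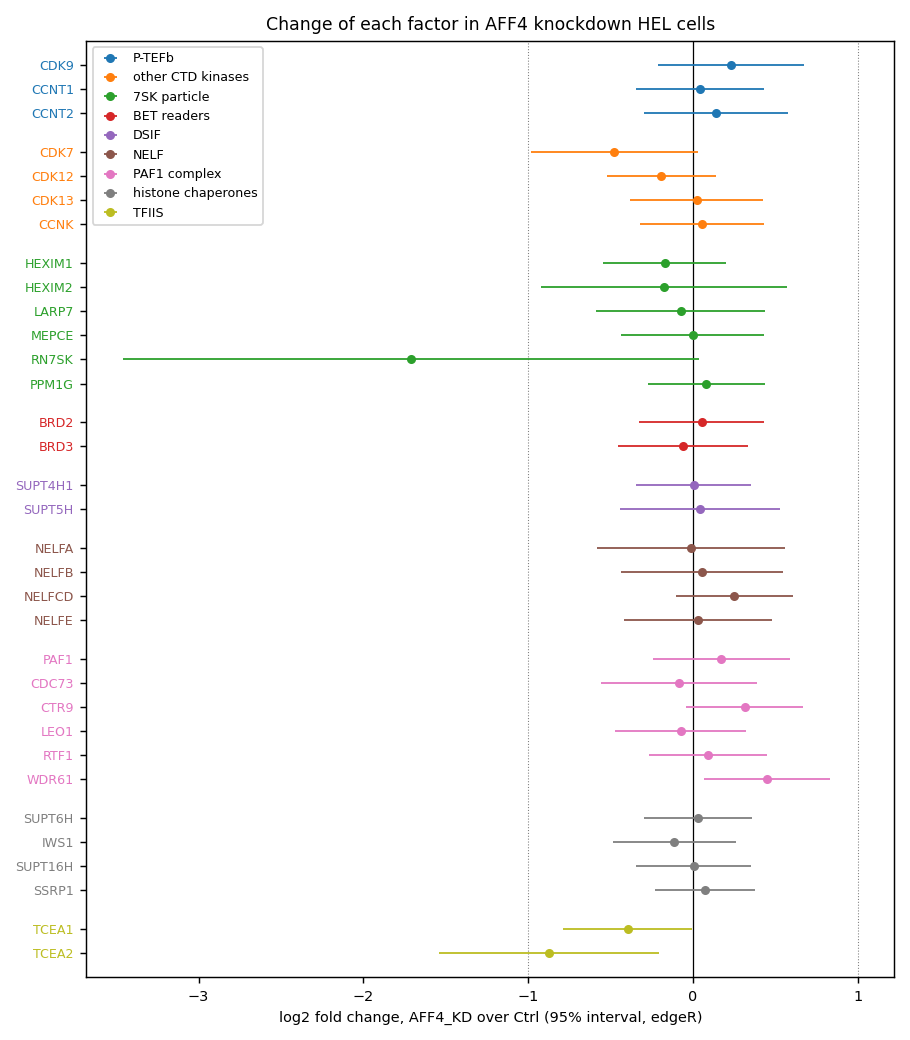
Log2 fold change of each of the 33 genes, AFF4_KD over Ctrl, with its 95% interval from the edgeR fit, coloured by role. Dotted lines mark 2-fold. Intervals of all genes but RN7SK and TCEA2 end inside them, and those of WDR61, TCEA1 and TCEA2 do not reach 0.

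The log2 fold changes of the 3 P-TEFb genes were all positive, between 0.04 and 0.23, and 0 of the 3 passed the test. CDK9, the kinase (chr9:127785679-127790787, plus strand), was at 48.4 and 49.5 CPM in AFF4_KD, against 36.4 and 47.2 CPM in Ctrl. The groups did not overlap, but the higher Ctrl library came close to the knockdown, and the log2 fold change was 0.23 ± 0.19 (SE; edgeR adjusted p = 0.657, 95% interval -0.21 to 0.67). Cyclin T1, CCNT1, was at 130.8 and 129.1 CPM in AFF4_KD and at 140.9 and 111.2 CPM in Ctrl. Cyclin T2, CCNT2, its paralog, was at 71.9 and 66.2 CPM in AFF4_KD and at 71.0 and 54.2 CPM in Ctrl. The groups overlapped for both cyclins, with log2 fold changes of 0.04 ± 0.16 and 0.14 ± 0.19 (SE; edgeR adjusted p = 0.940 and 0.815). Against Ctrl 1 alone the log2 fold changes were 0.43 for CDK9 and -0.12 for CCNT1, and against Ctrl 2 alone they were 0.06 for CDK9 and 0.23 for CCNT1, so the order of kinase and cyclin depended on the Ctrl library. Per kilobase of the longest annotated transcript, CDK9 and CCNT1 were at 19.9 ± 0.321 and 18.6 ± 0.173 CPM per kb in AFF4_KD and at 17.0 ± 3.10 and 18.1 ± 3.01 in Ctrl (mean ± SD, n = 2 each). In Ctrl these levels differed by less than the SD of either gene. CCNT2 was lower than both, at 9.98 ± 0.587 CPM per kb in AFF4_KD and 9.05 ± 1.71 in Ctrl.

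Among the other CTD kinases, CDK7 had the largest difference. CDK7, the kinase of TFIIH that acts at initiation and also activates CDK9, was at 8.18 and 7.31 CPM in AFF4_KD, against 11.9 and 9.57 CPM in Ctrl. Both knockdown libraries lay under both Ctrl libraries, with the log2 fold change at -0.48 ± 0.21 (SE; edgeR adjusted p = 0.365, 95% interval -0.98 to 0.03). Per kilobase of transcript CDK7 was at 5.32 ± 0.425 CPM per kb in AFF4_KD and at 7.39 ± 1.15 in Ctrl (mean ± SD, n = 2 each). CDK12, which with cyclin K sustains elongation through long genes, was at 139.7 and 138.0 CPM in AFF4_KD and at 166.5 and 150.6 CPM in Ctrl, also without overlap (log2 fold change -0.19, edgeR adjusted p = 0.605). Its paralog CDK13 was at 42.7 and 42.9 CPM in AFF4_KD and at 45.2 and 38.9 CPM in Ctrl, with overlap and a log2 fold change of 0.02. Per kilobase of transcript CDK12 exceeded CDK13 in both groups, at 16.7 ± 0.139 against 4.22 ± 0.0190 CPM per kb in AFF4_KD and at 19.0 ± 1.35 against 4.15 ± 0.443 in Ctrl (mean ± SD, n = 2 each). Cyclin K, CCNK, had a log2 fold change of 0.06, also with overlapping groups. The exons of CCNK share 59.5% of their bases with CCDC85C on the other strand, and whether strand was used in counting is unknown, so its level is uncertain.

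Of the 7SK particle and PPM1G, a phosphatase that acts on it, 0 of 6 genes passed the test. The log2 fold changes of the 5 protein genes lay between -0.17 and 0.08, and the only positive one was that of PPM1G. On the log2 scale the RNA differed most between the Ctrl libraries. HEXIM1, the main inhibitor of CDK9 in the particle, was at 53.1 and 56.4 CPM in AFF4_KD, against 59.9 and 63.5 CPM in Ctrl. The knockdown libraries were both lower, by less than 1.5-fold, with the log2 fold change at -0.17 ± 0.16 (SE; edgeR adjusted p = 0.705, 95% interval -0.54 to 0.20). HEXIM2, its paralog and neighbour on chromosome 17, was at 1.66 and 2.55 CPM in AFF4_KD and at 2.09 and 2.68 CPM in Ctrl. These rest on 30 and 43 counts in AFF4_KD and 39 and 40 in Ctrl, and the groups overlapped (log2 fold change -0.17, 95% interval -0.92 to 0.57). Per kilobase of transcript HEXIM1 exceeded HEXIM2 in both groups, at 15.2 ± 0.661 against 1.38 ± 0.415 CPM per kb in AFF4_KD and at 17.1 ± 0.697 against 1.56 ± 0.273 in Ctrl (mean ± SD, n = 2 each).

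RN7SK was at 4.37 and 4.99 CPM in AFF4_KD, against 4.07 and 26.8 CPM in Ctrl, which rest on 79 and 84 counts in AFF4_KD and on 76 and 401 counts in Ctrl. Ctrl 2 stood apart, and Ctrl 1 lay just under both knockdown libraries. The log2 fold change -1.71 ± 0.74 (SE; edgeR adjusted p = 0.346, 95% interval -3.46 to 0.04) therefore rests on 1 library. It was 0.20 without Ctrl 2 and -2.52 without Ctrl 1. Reads of 7SK can also match its many pseudogene copies, and how such reads were counted is unknown. LARP7, which binds and protects the 3′ end of 7SK, MEPCE, which caps its 5′ end, and PPM1G, a phosphatase that frees P-TEFb from the particle, had log2 fold changes of -0.07, -0.0013 and 0.08, with edgeR adjusted p between 0.877 and 0.999. The log2 fold change of LARP7 was -0.33 against Ctrl 1 alone and 0.24 against Ctrl 2 alone.

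**Figure D2:**
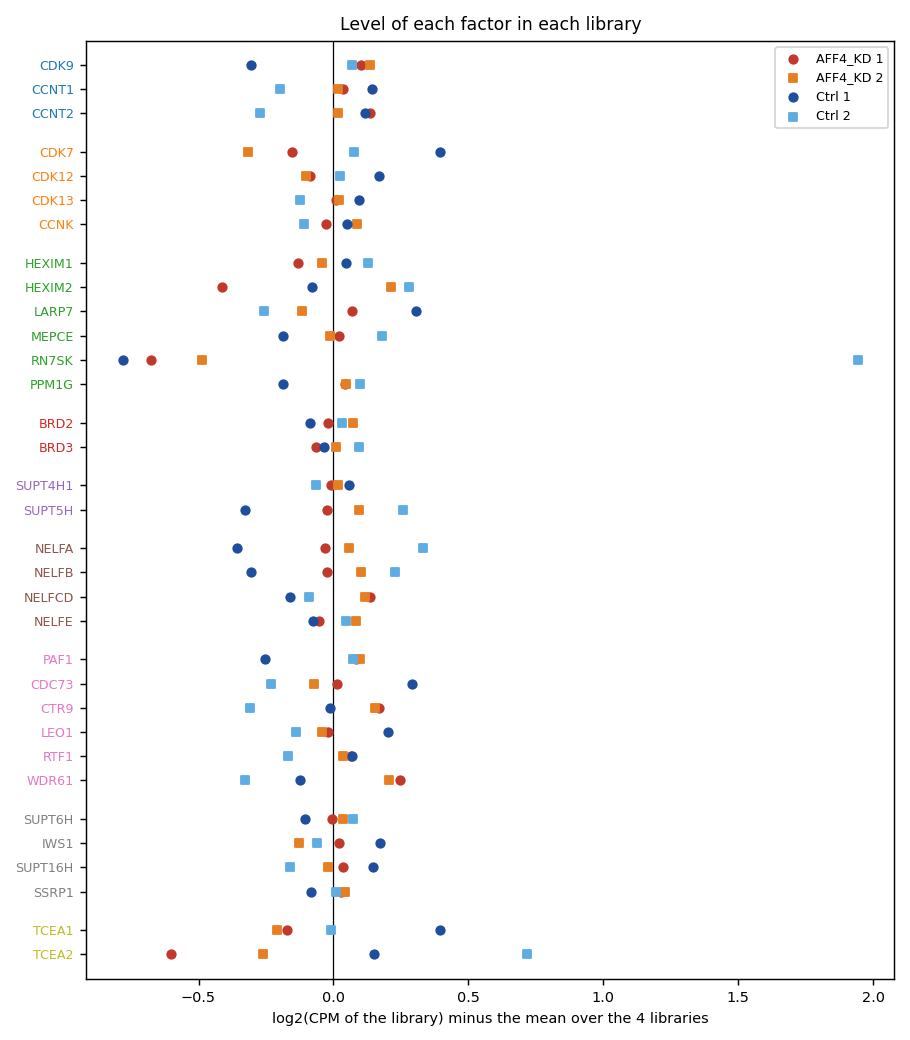
Level of each gene in the 4 libraries, as log2 CPM minus the mean of the 4 values for that gene, AFF4_KD in red and orange and Ctrl in blue. The 2 knockdown libraries lie close together for most genes, the 2 Ctrl libraries often lie on either side of them, and Ctrl 2 stands far to the right for RN7SK.

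The pausing factors and the BET readers showed no called change. BRD2 and BRD3 bind acetylated histones, and paralogs of this family recruit P-TEFb. BRD3 was at 39.2 and 41.3 CPM in AFF4_KD and at 40.0 and 43.8 CPM in Ctrl, and BRD2 at 51.8 and 55.2 CPM in AFF4_KD and at 49.4 and 53.7 CPM in Ctrl. Groups overlapped in both, with log2 fold changes of -0.06 for BRD3 and 0.05 for BRD2. The exons of BRD3 share 18.6% of their bases with BRD3OS on the other strand. Of DSIF, SUPT5H, the SPT5 subunit that P-TEFb phosphorylates, was at 160.2 and 173.9 CPM in AFF4_KD, against 129.9 and 194.6 CPM in Ctrl. Both knockdown values lay between the Ctrl values, with the log2 fold change at 0.04 ± 0.21 (SE; edgeR adjusted p = 0.954). SUPT4H1, the SPT4 subunit, had a log2 fold change of 0.0055 (95% interval -0.34 to 0.35), and 27.8% of its exonic bases are shared with the antisense gene TSPOAP1-AS1. BRD2 and NELFE lie in the major histocompatibility complex on chromosome 6, a region with alternate haplotype copies in hg38, so their levels are uncertain.

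NELF has 4 subunits, and NELFCD had the largest difference. NELFCD was at 74.8 and 73.8 CPM in AFF4_KD, against 60.9 and 63.9 CPM in Ctrl. The groups did not overlap and each pair was tight, with the log2 fold change at 0.25 ± 0.15 (SE; edgeR adjusted p = 0.505, 95% interval -0.10 to 0.61). The other subunits, NELFA, which contacts the polymerase, the scaffold NELFB and the RNA-binding NELFE, had log2 fold changes of -0.01, 0.06 and 0.03, with overlapping groups. NELFA was at 47.4 and 50.5 CPM in AFF4_KD, against 37.8 and 61.0 CPM in Ctrl. On the log2 scale this was the widest gap between the Ctrl libraries after RN7SK. Per kilobase of transcript NELFE had 7.39 ± 0.507 CPM per kb in AFF4_KD and 7.23 ± 0.435 in Ctrl (mean ± SD, n = 2 each). This level is uncertain, since NELFE lies in the major histocompatibility complex. NELFB had 25.5 ± 1.55 in AFF4_KD and 24.5 ± 6.32 in Ctrl. Between them lay NELFA, at 14.6 ± 0.648 in AFF4_KD and 14.8 ± 4.90 in Ctrl, and NELFCD, at 20.8 ± 0.189 and 17.4 ± 0.603. This order depends on the transcript length used. Not divided by length, the mean of NELFCD was above that of NELFB in AFF4_KD (74.3 against 68.7 CPM). In Ctrl it was below (62.4 against 66.1 CPM). Whether the subunits differ in level was not tested.

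The PAF1 complex, which joins the polymerase after release and promotes histone modification along genes, held the 2 largest positive log2 fold changes of the list, neither of which passed the test. WDR61 (chr15:78277835-78299794, minus strand) also encodes a subunit of the SKI complex, which acts in RNA degradation. The gene was at 74.2 and 72.2 CPM in AFF4_KD, against 57.5 and 49.8 CPM in Ctrl. Both knockdown libraries were above both Ctrl libraries, with a log2 fold change of 0.45 ± 0.16 (SE; edgeR unadjusted p = 0.0273, adjusted p = 0.262, 95% interval 0.07 to 0.83). CTR9, the large scaffold of the complex, was at 306.9 and 304.1 CPM in AFF4_KD, against 271.1 and 220.4 CPM in Ctrl. It too was higher in both, with the log2 fold change at 0.31 ± 0.15 (SE; edgeR adjusted p = 0.394, 95% interval -0.04 to 0.67). CTR9 shares 134 exonic bases, 2.22% of its total, with EIF4G2 on the other strand. The subunits PAF1, RTF1, LEO1 and CDC73 had log2 fold changes of 0.17, 0.09, -0.07 and -0.08, and of these 4 the groups were apart in PAF1. Of the 6 subunits 4 had positive and 2 negative log2 fold changes, and 0 passed the test.

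Of the histone chaperones 0 of 4 passed the test. SUPT6H, SUPT16H and SSRP1, the last 2 forming FACT, had log2 fold changes of 0.03, 0.0052 and 0.07, and IWS1, the partner of SPT6, had -0.11 ± 0.16 (SE; edgeR adjusted p = 0.831). IWS1 was at 102.3 and 92.3 CPM in AFF4_KD and at 113.6 and 96.6 CPM in Ctrl, with overlap. The intervals of these 4 genes ran from -0.49 to 0.38 at the widest. Per kilobase of the longest annotated transcript, SUPT16H had 85.1 ± 2.36 CPM per kb in AFF4_KD and 84.8 ± 12.7 in Ctrl (mean ± SD, n = 2 each). By this measure SUPT16H was the highest of the 33 genes in AFF4_KD, a rank that depends on the transcript length used.

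TFIIS, which lets a backtracked polymerase cleave its transcript and resume, was lower in both listed genes, though neither passed the test. TCEA2 (chr20:64049836-64072347, plus strand) was at 2.76 and 3.50 CPM in AFF4_KD, against 4.66 and 6.90 CPM in Ctrl, which rest on 50 and 59 counts in AFF4_KD and on 87 and 103 counts in Ctrl. The groups did not overlap, and the log2 fold change was -0.88 ± 0.28 (SE; edgeR unadjusted p = 0.0173, adjusted p = 0.217, 95% interval -1.54 to -0.21). TCEA1, the ubiquitous paralog, was at 229.8 and 224.0 CPM in AFF4_KD, against 340.3 and 257.2 CPM in Ctrl. Its knockdown libraries were likewise both lower, with a log2 fold change of -0.40 ± 0.17 (SE; edgeR unadjusted p = 0.0485, adjusted p = 0.329). Per kilobase of transcript TCEA1 was far above TCEA2 in both groups, at 76.5 ± 1.38 against 1.33 ± 0.222 CPM per kb in AFF4_KD and at 100.7 ± 19.8 against 2.45 ± 0.671 in Ctrl (mean ± SD, n = 2 each). TCEA3, a further TFIIS gene, had 1 and 3 counts in AFF4_KD and 2 and 1 in Ctrl and was not tested.

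**Figure D3:**
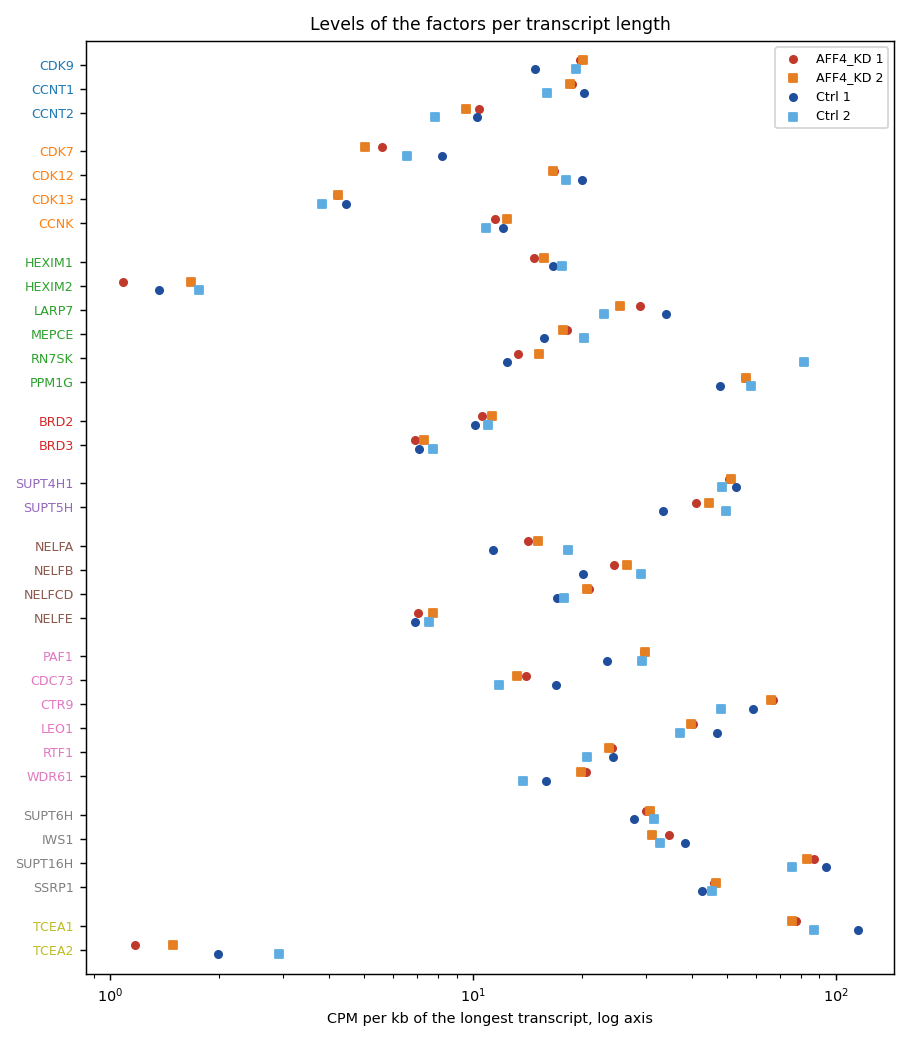
Level of each gene per length, in CPM per kb of the longest GENCODE transcript on a log axis, for the 4 libraries. SUPT16H, TCEA1 and CTR9 lie at the upper end and HEXIM2 and TCEA2 at the lower end in both groups.

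Of the 33 genes, 6 had both knockdown libraries above both Ctrl libraries and 5 had both below, where 23.1% and 23.0% of all tested genes did. The higher ones were CDK9, NELFCD, PAF1, CTR9, WDR61 and SSRP1, and the lower ones CDK7, CDK12, HEXIM1, TCEA1 and TCEA2. In the other 22 genes the groups overlapped.

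The 2 AFF4_KD libraries differed by a median of 0.057 over the 33 genes on the log2 scale, sign left out, and by 0.090 over all tested genes. The 2 Ctrl libraries differed by a median of 0.31 over the 33 genes and 0.34 over all tested genes. The gap within Ctrl was wider than the gap within AFF4_KD for 30 of 33 genes, and wider than the log2 fold change for 26. These counts were not made over all tested genes, so they do not set the list apart. The gap compares single libraries, whereas the log2 fold change compares groups of 2. The gap within Ctrl followed the base composition of the transcript. Ctrl 2 was above Ctrl 1 in 14 of the 15 genes with a transcript GC content over 50% and in 3 of the other 18. Spearman's rho of GC content with Ctrl 2 minus Ctrl 1 was 0.94 over the 33 genes and 0.82 over all tested genes with a GC value, and with AFF4_KD 2 minus AFF4_KD 1 it was 0.78 and 0.41. With the log2 fold change between groups it was 0.0013 and -0.0040. These are descriptions across genes of the same 4 libraries.

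**Figure D4:**
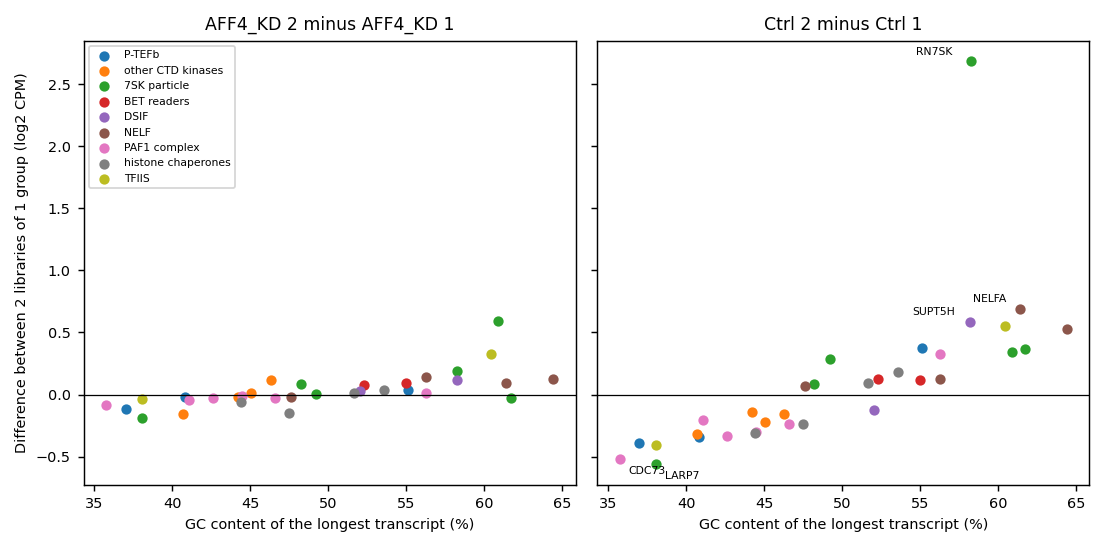
Difference between the 2 AFF4_KD libraries (left) and between the 2 Ctrl libraries (right) for each of the 33 genes, in log2 CPM, against the GC content of its longest transcript in percent, coloured by role. On the right the points climb from LARP7 and CDC73 at the low end to NELFA and SUPT5H, with RN7SK far above the rest. On the left the climb is smaller.

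The direction depended on the Ctrl library for much of the list. The sign of the log2 fold change differed between the fit against Ctrl 1 alone and the fit against Ctrl 2 alone in 22 of 33 genes, where it differed in 43.5% of the 13782 genes tested in both fits. In these fits, where the spread comes from the knockdown pair and the lone Ctrl library is assumed to vary like it, 17 genes passed against Ctrl 1 alone (51.5%, where 48.4% of all tested genes passed) and 15 against Ctrl 2 alone (45.5%, where 44.0% passed). CDC73, LARP7, NELFA and SUPT5H, 4 of the 33, passed both times in opposite directions, where 7.75% of the genes tested in both fits did. The log2 fold change of SUPT5H, for example, was 0.36 against Ctrl 1 alone and -0.22 against Ctrl 2 alone. CTR9, NELFCD and WDR61 passed both times as higher and TCEA1 and TCEA2 both times as lower. These 5 are 15.2% of the list, near the 16.5% of the genes tested in both fits that passed both times in the same direction, and the fits share the knockdown libraries. The 5 had log2 fold changes of 0.17, 0.29, 0.35, -0.59 and -0.58 against Ctrl 1 alone and of 0.47, 0.22, 0.56, -0.18 and -1.14 against Ctrl 2 alone, for CTR9, NELFCD, WDR61, TCEA1 and TCEA2 in that order.

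**Figure D5:**
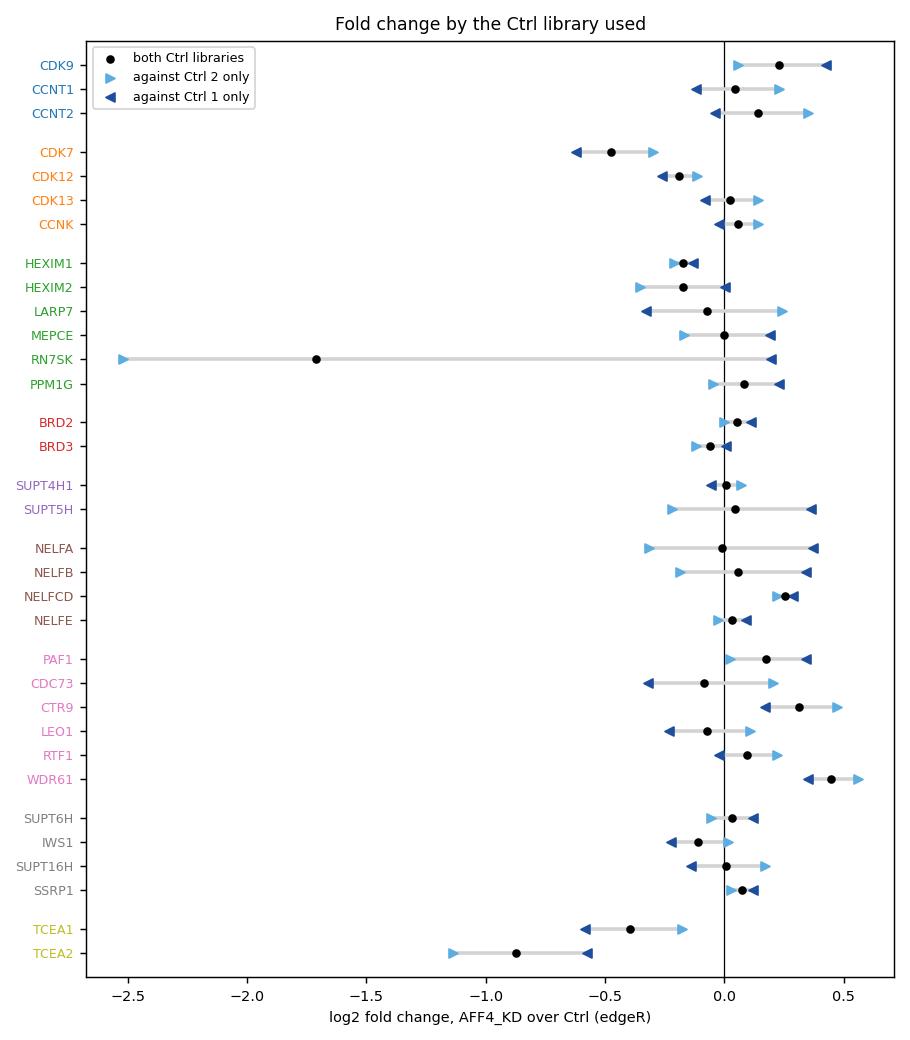
Log2 fold change of each gene, AFF4_KD over Ctrl, with both Ctrl libraries (black), against Ctrl 1 alone (dark blue) and against Ctrl 2 alone (light blue). The blue points lie on opposite sides of 0 in 22 genes, and on the same side in CDK9, CDK7, CDK12, HEXIM1, NELFCD, PAF1, CTR9, WDR61, SSRP1, TCEA1 and TCEA2.

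A trend with GC content was also removed from each library. After this correction 8 of the 33 genes passed (24.2%), a share no higher than the 28.1% of all tested genes that passed. CDK9, CTR9, NELFCD and WDR61 were higher, at 0.23, 0.32, 0.24 and 0.47 on the log2 scale (edgeR adjusted p = 0.0393, 0.00508, 0.0440 and 0.00275). CDK12, CDK7, TCEA1 and TCEA2 were lower, at -0.19, -0.45, -0.35 and -0.85 (edgeR adjusted p = 0.0367, 0.0287, 0.00246 and 0.00958). Without the correction, CDK9, CDK7 and CDK12 had log2 fold changes of 0.06, -0.30 and -0.11 against Ctrl 2 alone. Against Ctrl 1 alone they had 0.43, -0.62 and -0.26. RN7SK did not pass with the correction (-1.58, edgeR adjusted p = 0.0966).

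Related genes of transcription elongation outside the list were read in the same way. Of 40 such genes, covering CDK8, CDK11 and TFIIH partners, elongin, TFIIF, CTD phosphatases, termination factors and proteins that bind or release 7SK, 39 were tested. By edgeR, DESeq2 and limma-voom 0 of them were called, and by edgeR 0 had an unadjusted p under 0.05. Their median log2 fold change was -0.0020, with 19 positive and 20 negative. The smallest unadjusted p-values belonged to the cyclin CCNL1, the hydroxylase JMJD6, the histone methyltransferase SETD2, the RNA helicase DDX21 and the cyclin CCNL2. Their log2 fold changes were 0.26 for CCNL1, -0.23 for JMJD6, -0.23 for SETD2, 0.20 for DDX21 and 0.18 for CCNL2, with edgeR adjusted p between 0.570 and 0.627. With the GC correction 6 of the 39 passed, where 28.1% of all tested genes passed. SPTY2D1, a histone chaperone, had a log2 fold change at 0.02 ± 0.22 (SE; edgeR adjusted p = 0.981).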

How the data were processed

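The submitters' processing notes name hg38, featureCounts 1.6.1, HISAT2 2.1.0 and fastp 0.13.1. They give no role or order, and the annotation, strand setting and handling of multi-mapped reads are not stated in the sources used here. The deposited values were whole-number counts per gene symbol. Libraries were strand-marking (dUTP) poly(A) libraries, per the labels' protocols. The members and lists were chosen with earlier results of these data known.

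Counts were fitted in edgeR 4.0.16 (R 4.3.3) with filterByExpr (minimum count 10), TMM and group as the only term, and p-values of the quasi-likelihood test were adjusted by Benjamini-Hochberg over 13572 genes. The scaling makes changes relative to the other genes. Called means an adjusted p under 0.05. SE is the absolute log2 fold change over the square root of F, and 95% intervals use the t quantile at the fit's degrees of freedom. An exact permutation of 2 against 2 libraries cannot give a p under 0.333. Counts of the replicates differed by more than counting noise, so none was taken as deposited more than once (chi-square per degree of freedom 2.42 in AFF4_KD, 41.3 in Ctrl). Positions, transcript length and GC content came from GENCODE v29 (GRCh38), with GC values for 97.0% of tested genes. Which transcripts were expressed was not examined, so levels per kb and their order between genes depend on the longest annotated form. Alternatives used DESeq2 1.42.0 and limma-voom (limma 3.58.1), other scalings and filters, a replicate block, a lowess GC correction (span 0.4) and each library left out. The edgeR, GC-corrected, DESeq2 and limma-voom procedures were also run on simulated counts. These had the same dispersion in all libraries and no GC trend, so they do not test the procedures on a Ctrl gap like the present one. Every list member is named, with values by library for P-TEFb, HEXIM1, HEXIM2, RN7SK, genes with an unadjusted p under 0.05 or with groups apart by at least 0.3 (log2), and the largest difference of each role. Values by library of CDK12, CDK13, BRD2 and NELFA were added after they were seen. Of the related genes, the 5 with the smallest unadjusted p were named, and SPTY2D1 was added.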

Additional observations from a re-analysis of the deposited data

How the results depend on the processing

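The count of listed genes called (0) was the same with RLE or total-count scaling, the filter of at least 5 CPM in 2 libraries (31 tested), DESeq2, limma-voom and an adjusted p under 0.1. It was 1 with no filter (RN7SK), 8 with the GC correction, and 0 to 17 with 1 library left out. The replicate numbers are shared by the groups but pair no samples by the labels. Across the tested genes, the difference of library 1 from library 2 in AFF4_KD correlated with that in Ctrl at 0.29. Both differences also followed GC content, and the part of GC content in this correlation was not tested. With the replicate block 2 were called (RN7SK and TCEA2, both lower), and 12 with the GC correction and the block. The related genes called (0) numbered 6 with the GC correction, 10 with the block added, and 0 to 19 with 1 library left out. Over all tested genes 87 were called, 734 (3.89%) with no filter, 5 with the 5 CPM filter, 406 in DESeq2, 888 (6.54%) with the replicate block, 3820 with the GC correction, 5294 (39.0%) with the block added, 357 at an adjusted p under 0.1, and 46 to 6722 with 1 library left out. The median of the list was 0.055 with total-count scaling, -0.0063 with the 5 CPM filter, and -0.00038 to 0.066 with 1 library left out. AFF4 missed the threshold with the 5 CPM filter (-2.10, edgeR adjusted p = 0.0552). The causes were not tested. Signs turned with the 5 CPM filter for CDK13 (-0.0067), SUPT4H1 (-0.027), NELFE (-0.0036), SUPT6H (-0.0063) and SUPT16H (-0.025). MEPCE was 0.026 with total-count scaling, 0.0011 with no filter, 0.015 in limma-voom, 0.0095 with the replicate block, 0.013 with the GC correction and 0.015 with both. NELFA was 0.014, 0.037, 0.026, 0.032 and 0.032 with total-count scaling, limma-voom, the block, the GC correction and both. SUPT4H1 was -0.016 with the GC correction and -0.012 with the block added. With 1 library left out, the log2 fold changes ran from -0.12 to 0.23 for CCNT1, -0.041 to 0.35 for CCNT2, -0.081 to 0.14 for CDK13, -0.023 to 0.14 for CCNK, -0.51 to 0.13 for HEXIM2, -0.33 to 0.24 for LARP7, -0.17 to 0.19 for MEPCE, -2.52 to 0.20 for RN7SK, -0.050 to 0.23 for PPM1G, -0.0036 to 0.13 for BRD2 and -0.12 to 0.0060 for BRD3. They ran from -0.056 to 0.071 for SUPT4H1, -0.22 to 0.36 for SUPT5H, -0.32 to 0.37 for NELFA, -0.18 to 0.34 for NELFB, -0.039 to 0.13 for NELFE, -0.32 to 0.20 for CDC73, -0.23 to 0.11 for LEO1, -0.021 to 0.22 for RTF1, -0.054 to 0.12 for SUPT6H, -0.22 to 0.014 for IWS1 and -0.14 to 0.17 for SUPT16H. The other 11 genes kept their sign in all 13 alternative fits, except that TCEA2 was tested in 12. HEXIM2 and TCEA2, with 30 to 103 counts in a library, were not tested with the 5 CPM filter.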
